A study of Mus musculus with 10 samples.

Results

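The 9 genes Clec7a, Clec4e, Clec4d, Clec4n, Clec12a, Clec5a, Clec4a1, Clec4a2 and Clec4a3 encode C-type lectin receptors of myeloid cells, and they were taken by name from the 49315 genes counted in each library. All 9 were found by their Ensembl identifier, all 9 were detected in all 10 libraries, and all 9 passed the filter on low counts in every comparison. Microglia, the resident macrophages of the brain, had been sorted by flow cytometry from brains of wild type C57BL/6 mice by surface CD11c, an integrin chain that is the product of the gene Itgax. The groups were 9-month CD11c+ (n = 2 libraries), 9-month CD11c- (n = 2), postnatal day 5 (P5) CD11c+ (n = 3) and P5 CD11c- (n = 3). No allele, transgene or treatment is given for any group. The question was how CD11c+ microglia differ from CD11c- microglia at each age.

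C-type lectin receptors bind sugars, glycolipids and other ligands on microbes and on dying cells. The activating receptors signal through tyrosine motifs, either in their own tail or in the adaptor chains Fcer1g (the Fc receptor gamma chain) and Tyrobp (DAP12), to the kinase Syk and from there to the Card9 complex and NF-kB. Clec7a (Dectin-1) is a beta-glucan receptor with its own motif, Clec4n (Dectin-2) binds mannans, Clec4e (Mincle) and Clec4d (MCL) bind mycobacterial glycolipids, and Clec5a (MDL-1) pairs with Tyrobp. Clec12a (MICL) and Clec4a2 (a dendritic cell immunoreceptor) carry inhibitory motifs, and Clec4a1 and Clec4a3 are further members of the dendritic cell immunoreceptor family. In the brain Clec7a is best known as a gene of disease-associated microglia, and Clec4e and Clec4d are known from neutrophils and monocytes.

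All 9 genes lie on chromosome 6. Clec4a1, Clec4a3, Clec4a2, Clec4n, Clec4d and Clec4e lie in that order within 368 kb (chr6:122921848-123289870). Of the other Clec genes, Clec4a4 and Clec4b1 lie between Clec4a3 and Clec4a2, and Clec4b2 lies between Clec4a2 and Clec4n. Clec12a and Clec7a lie within 130.1 kb of each other's far ends (chr6:129342691-129472779), and Clec5a lies apart (chr6:40574894-40585821). These coordinates are those of the deposited tables and are the same in the GENCODE M21 annotation of GRCm38 for all 9 genes. That annotation types Clec7a as a polymorphic pseudogene and the other 8 as protein coding. Clec4d and Clec4e are separated by 6.5 kb and lie on opposite strands. Of all 50-base stretches of the annotated transcripts, 6.83% of those of Clec4a2 also occur in transcripts of other genes, Clec4a4 and Clec4b1 among them, and Clec4a2 overlaps Gm44132 on the same strand, so its counts are less certain than those of the other members. The share was 0.686% for Clec4n, 0.457% for Clec12a and 0 for the other 6.

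The 250 bases before the start site are shown for the 3 genes with the largest decreases in 9-month CD11c+ libraries (Clec4d, Clec4e and Clec12a) and for Clec4a1, which lies at the other end of the gene group of the first 2 and did not pass the test there. They were chosen after the values were seen. The windows are those of RefSeq on GRCm38.p6, read 5′ to 3′ on the gene's strand, at chr6:123261857-123262106 (plus strand), chr6:123289872-123290121 (minus strand), chr6:129349994-129350243 (plus strand) and chr6:122921598-122921847 (plus strand). The Clec12a window lies inside the gene as the deposited tables bound it. Capitals mark GAGGAA, a core sequence bound by PU.1, the transcription factor of the myeloid lineage, or its reverse complement TTCCTC.
Clec4d: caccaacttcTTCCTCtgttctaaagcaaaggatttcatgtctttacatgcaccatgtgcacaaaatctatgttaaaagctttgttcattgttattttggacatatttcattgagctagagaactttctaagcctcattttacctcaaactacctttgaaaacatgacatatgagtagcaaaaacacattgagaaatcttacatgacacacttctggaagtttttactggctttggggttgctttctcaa
Clec4e: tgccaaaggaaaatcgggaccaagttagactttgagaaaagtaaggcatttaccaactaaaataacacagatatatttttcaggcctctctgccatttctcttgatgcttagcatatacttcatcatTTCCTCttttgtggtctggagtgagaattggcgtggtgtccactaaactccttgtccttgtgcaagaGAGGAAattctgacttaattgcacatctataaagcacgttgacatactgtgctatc
Clec12a: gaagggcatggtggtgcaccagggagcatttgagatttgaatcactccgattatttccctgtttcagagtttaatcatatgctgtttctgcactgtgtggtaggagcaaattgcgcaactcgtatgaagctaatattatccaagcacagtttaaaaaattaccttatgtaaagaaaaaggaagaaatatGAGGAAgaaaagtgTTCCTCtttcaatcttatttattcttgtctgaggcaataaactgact
Clec4a1: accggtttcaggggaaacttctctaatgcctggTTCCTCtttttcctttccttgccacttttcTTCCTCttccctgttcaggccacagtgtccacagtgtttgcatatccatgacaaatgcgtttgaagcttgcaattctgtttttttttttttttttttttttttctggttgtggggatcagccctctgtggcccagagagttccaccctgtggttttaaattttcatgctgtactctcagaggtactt
RefSeq windows were found for 8 of the 9 genes, all but Clec4n. GAGGAA on either strand was present in at least 1 window of 7 of these 8 genes, the exception being Clec4a2, and in 23.3% of all 32851 windows of the same length, where a gene may have more than 1. The nearest match to the start lay 240 bases before it in Clec4d, 56 in Clec4e, 47 in Clec12a and 187 in Clec4a1. The C/EBP core TTNCNNAA, on either strand, was found in 5 of the 8 genes (Clec4d, Clec4e, Clec12a, Clec4a2 and Clec5a) and in 36.8% of all windows. The AP-1 sequence TGANTCA was found in 1 of the 8 genes, Clec12a, and in 6.75% of all windows. All 4 windows shown carry GAGGAA on one strand or the other.

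The libraries held 11892082 to 25483573 counts, apart from P5 CD11c+ replicate 2 with 2619610. That library had 23033 genes at a level of at least 1 CPM (a gene's count divided by the library total and scaled to 1000000 counts), where the other 9 libraries had 12762 to 14735. Its correlation across genes with each other library of that age was r = 0.716 to 0.777. It was kept, and values without it are given where they change the call of a member, and for some other genes. Itgax, the check of the sort, stood at 28.0 and 20.7 CPM in 9-month CD11c+ libraries, against 5.80 and 3.21 CPM in 9-month CD11c- libraries. At P5 Itgax stood at 250.2, 49.2 and 144.8 CPM in CD11c+ libraries and at 33.1, 61.9 and 29.3 CPM in CD11c- libraries, so P5 CD11c+ replicate 2 lay below the highest CD11c- library. In the edgeR test described below, Itgax passed at 9 months (log2 fold change 2.08, SE 0.33, adjusted p = 0.00397). It did not pass at P5 with all libraries. Without P5 CD11c+ replicate 2 it was 2.06 and passed there (adjusted p = 0.0222, edgeR). The share of mitochondrial counts was 0.392% and 0.42% in 9-month CD11c+ and 0.225% and 0.389% in 9-month CD11c- libraries. It was 0.791% to 2.8% in P5 CD11c+ and 7.19% to 28.1% in P5 CD11c- libraries.

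Genes that mark other myeloid cells moved with the groups. Here and in the marker paragraphs that follow, genes counted as lower or higher passed an adjusted p of 0.05 in the edgeR test described below. Of all genes tested at 9 months 18.2% were called lower and 14.8% higher in CD11c+. At P5 0.299% were called, all of them higher. The 18 neutrophil markers summed to 0.219% and 0.313% of all counts in 9-month CD11c+ libraries, against 13.9% and 18.9% in 9-month CD11c- libraries. Of them 17 of 18 were lower in CD11c+, and the granule gene Elane (0.983 to 3.81 CPM in 9-month CD11c+, against 589 to 689 CPM in 9-month CD11c-) and the surface gene Ly6g (3.76 to 6.2 CPM, against 530 to 656 CPM) were near 0 in CD11c+ libraries. The 15 monocyte markers summed to 0.0440% to 0.0591% in 9-month CD11c+ and to 1.69% to 1.95% in 9-month CD11c- libraries, with 13 of 15 lower and 1 higher in CD11c+. The 9 eosinophil markers summed to 0.00588% to 0.00633% in 9-month CD11c+ libraries, against 0.150% to 0.158% in 9-month CD11c-. Of these 8 were lower and 1 higher in CD11c+, with Epx at 0 to 0.196 CPM in 9-month CD11c+ libraries.

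Border-associated macrophages, which live in the meninges and along vessels, have markers that ran the other way. The 15 genes summed to 0.207% to 0.219% in 9-month CD11c+ libraries, against 0.0548% to 0.0653% in 9-month CD11c-, with 14 of 15 higher and 1 lower. At P5 they summed to 1.40% to 1.83% in CD11c+ libraries, against 0.0836% to 0.169% in CD11c-, with 9 of 15 higher. The defining gene Cd209f was at 54.2 to 127.8 CPM in P5 CD11c+ libraries, against 0.202 to 0.885 CPM in P5 CD11c-. The 15 dendritic cell markers summed to 0.0343% to 0.0377% in 9-month CD11c+ libraries, against 0.0665% to 0.0784% in 9-month CD11c-, with 6 higher and 4 lower. Cd24a alone held 79.5% to 80.2% of that sum in 9-month CD11c- libraries, and the other 14 genes summed to 0.0330% to 0.0356% in 9-month CD11c+ and 0.0136% to 0.0155% in 9-month CD11c- libraries. At P5 all 15 summed to 0.028% to 0.0389% in CD11c+ libraries, against 0.00974% to 0.00984% in CD11c-, with 2 higher. At P5 0 genes of the neutrophil, monocyte and eosinophil lists passed, and the neutrophil sum was 0.0422% to 0.0610% in CD11c+ libraries and 0.117% to 0.384% in CD11c- libraries.

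The 25 homeostatic microglial genes made up 9.18% to 9.86% of counts in 9-month CD11c+ libraries and 3.11% to 3.18% in 9-month CD11c- libraries, with 24 higher and 1 lower. At P5 they made up 1.78% to 2.74% in CD11c+ and 2.40% to 4.13% in CD11c- libraries, and 0 passed. The 18 genes of axon tract and disease-associated microglia made up 2.71% to 2.77% in 9-month CD11c+ and 4.35% to 5.39% in 9-month CD11c- libraries, with 5 higher and 5 lower, and 2.08% to 3.48% in P5 CD11c+ and 1.12% to 1.69% in P5 CD11c- libraries, where 0 passed. Lyz2, the lysozyme gene, alone held 74.5% to 79.1% of that sum in 9-month CD11c- libraries and 16.7% to 17.4% in 9-month CD11c+ libraries. The other 17 genes made up 2.24% to 2.31% in 9-month CD11c+ and 1.11% to 1.13% in 9-month CD11c- libraries, the opposite direction. Lyz2 and Cd24a were set apart after their values were seen, as the highest gene of each list in 9-month CD11c- libraries. The part of other cells in the results that follow was not tested, and in bulk samples fewer cells of a type and less RNA per cell cannot be told apart.

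**Figure D1:**
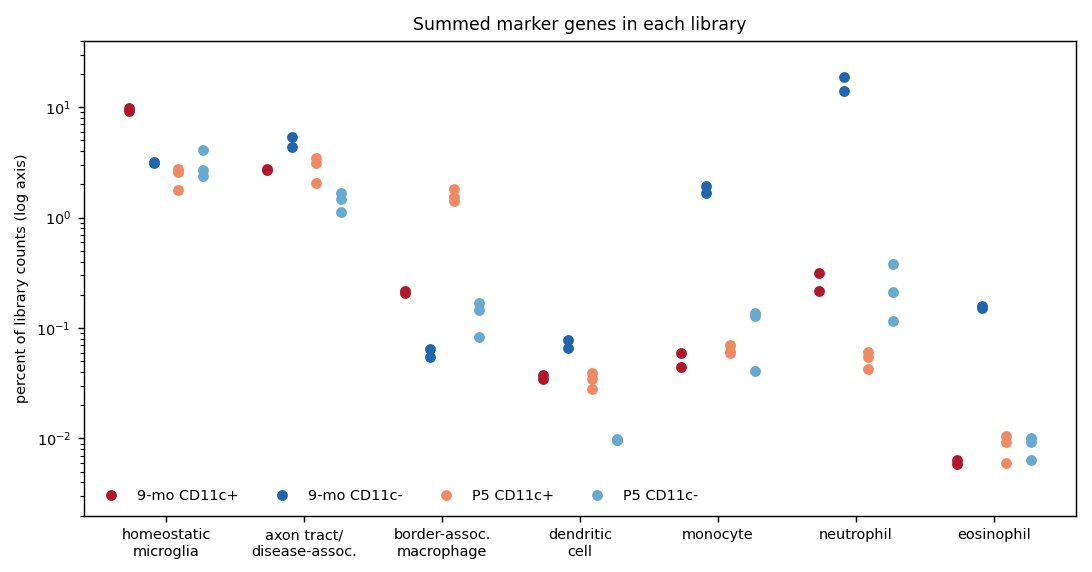
Summed marker genes of 7 cell types or states as a percent of all counts (log axis), 1 point per library, coloured by group. The neutrophil and monocyte sums of the 2 9-month CD11c- libraries lie far above the other 8 libraries, at 13.9% to 18.9% and at 1.69% to 1.95%, and the sums for border-associated macrophages are highest in the 3 P5 CD11c+ libraries.

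At 9 months the lectin genes were mostly lower in CD11c+ than in CD11c- libraries. Log2 fold changes come from edgeR, which rescales the library totals (TMM scaling), while CPM use the totals as counted. Fold changes and CPM can therefore differ in size and in sign. Of the 9 members 6 fell and 1 rose past an adjusted p of 0.05 by the quasi-likelihood test of edgeR, against a background of 18.2% lower and 14.8% higher (33.0% in either direction) among the 15740 genes tested. The median log2 fold change of the 9 was -1.14, against 0.02 over all genes tested. Clec4d, Clec4e, Clec12a, Clec4a2, Clec7a and Clec5a were lower, Clec4n was higher, and Clec4a1 and Clec4a3 did not pass. The neutrophil, monocyte and eosinophil marker sums were lower, and the sum for border-associated macrophages higher, in the same CD11c+ libraries.

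Clec4d, the partner chain of Mincle, stood at 1.84 and 1.03 CPM in 9-month CD11c+ libraries, against 65.0 and 76.7 CPM in 9-month CD11c- libraries. The CD11c+ values rest on 47 and 24 counts. The groups were far apart, with both CD11c+ libraries near the bottom of the member range, and the gene fell by 6.00 on the log2 scale, a 63.8-fold difference (SE 0.35, adjusted p = 5.92e-05, edgeR).

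Its neighbour Clec4e stood at 13.3 and 14.0 CPM in 9-month CD11c+ libraries, against 315.6 and 311.0 CPM in CD11c- libraries. Replicates lay close together in both groups and the groups did not overlap. The log2 fold change was -4.90 (SE 0.17, adjusted p = 2.63e-05, edgeR), a 29.9-fold difference and the smallest p among the 9.

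Clec12a, the inhibitory receptor for uric acid crystals, stood at 47.5 and 42.7 CPM in 9-month CD11c+ libraries, against 302.2 and 307.7 CPM in CD11c- libraries. It fell by 3.14 on the log2 scale (SE 0.17, adjusted p = 5.16e-05, edgeR), 8.80-fold. The inhibitory Clec4a2 stood at 77.6 and 87.0 CPM in CD11c+ libraries, against 233.5 and 254.9 CPM in CD11c-. It was lower in both CD11c+ libraries than in either CD11c- library, with a log2 fold change of -1.95 (SE 0.17, adjusted p = 0.000316, edgeR).

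Clec7a, the beta-glucan receptor of disease-associated microglia, was also lower in the CD11c+ libraries of adult mice. It stood at 92.1 and 100.7 CPM there, against 147.3 and 176.7 CPM in CD11c- libraries. The groups did not overlap, and the log2 fold change was -1.14 (SE 0.19, adjusted p = 0.00474, edgeR), 2.20-fold. Clec5a, which signals through Tyrobp, stood at 166.3 and 181.3 CPM in CD11c+ libraries, against 275.4 and 239.7 CPM in CD11c-, again without overlap. Its log2 fold change was -0.94 (SE 0.14, adjusted p = 0.00296, edgeR).

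Clec4n was the single member called higher. Dectin-2 RNA stood at 26.0 and 22.9 CPM in 9-month CD11c+ libraries, against 2.53 and 5.74 CPM in CD11c- libraries, which rest on 61 and 127 counts. The groups did not overlap, and the log2 fold change was 2.16 (SE 0.44, adjusted p = 0.0105, edgeR). It was 3.05 without CD11c- replicate 2, the higher of the CD11c- libraries. With libraries scaled to the homeostatic microglial genes, where the median over all genes became -1.19, Clec4n no longer passed, at 0.96 (adjusted p = 0.0762), and 0 members were higher and 8 lower, against 0.731% and 55.3% of all genes.

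The remaining members, both of the dendritic cell immunoreceptor family, did not pass at 9 months. Clec4a1 stood at 20.1 and 19.4 CPM in CD11c+ libraries and at 19.8 and 16.5 CPM in CD11c- libraries, so that the groups overlapped (log2 fold change -0.25, SE 0.21, adjusted p = 0.396, edgeR). Its mean CPM was higher in CD11c+ libraries (19.7, against 18.2 in CD11c-), opposite in sign to the TMM-scaled fold change of Clec4a1. Scaled to the homeostatic genes it was -1.48 and passed (adjusted p = 0.00118, edgeR). Clec4a3 stood at 155.1 and 193.2 CPM in CD11c+ libraries and at 89.3 and 131.9 CPM in CD11c- libraries, without overlap, and its log2 fold change of 0.26 (SE 0.26) did not pass (adjusted p = 0.483, edgeR). Without 9-month CD11c- replicate 2 the value was 0.74 and passed (adjusted p = 0.0403, edgeR), in a fit where the spread comes from the CD11c+ pair and the lone CD11c- library is assumed to vary like it. Scaled to the homeostatic genes, which turned its direction, it was -0.94 (adjusted p = 0.0154, edgeR).

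In a fit of all 10 libraries, which share an estimate of the spread with the P5 libraries, 4 members stayed lower at 9 months (Clec4d, Clec4e, Clec12a and Clec4a2). Clec7a (adjusted p = 0.309), Clec5a (0.345) and Clec4n (0.206) no longer passed in that edgeR fit, where the background was 4.49% lower and 1.43% higher. DESeq2 and limma-voom each called the same number of members lower as edgeR on the 9-month libraries, 6, against 19.9% and 19.0% of genes.

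**Figure D2:**
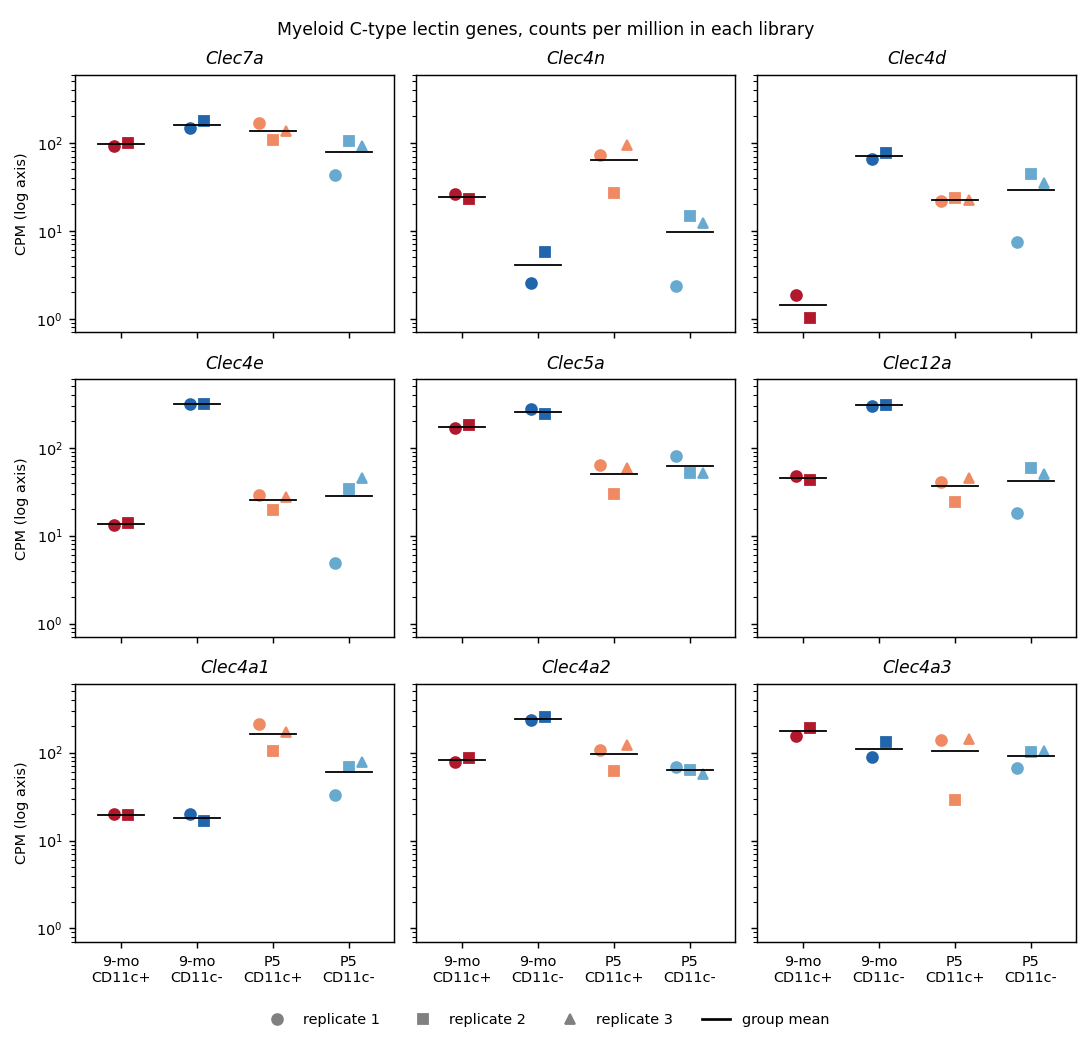
CPM of each of the 9 lectin genes (log axis) in the 4 groups, 1 point per library, with replicates by shape and the group mean as a line. At 9 months Clec4d, Clec4e and Clec12a lie at 1.03 to 47.5 CPM in CD11c+ and at 65.0 to 315.6 CPM in CD11c- libraries, while Clec4n is higher in CD11c+ libraries at both ages.

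At P5 none of the 9 members passed the test, against a background of 46 of 15410 genes (0.299%), all of them higher in CD11c+. At an unadjusted p under 0.05 there were 2 members, Clec4n and Clec4a1, both higher, among 668 genes higher and 409 lower in edgeR. The median log2 fold change of the 9 was -0.03, against 0.06 over all genes tested, with 4 above 0 and 5 below. DESeq2 called 1 of the 9, Clec4n (adjusted p = 0.0498), against 2.54% of genes higher, and limma-voom called 0, against 0.487%.

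Clec4n had the largest difference at P5, and no library of either group overlapped the other group. It stood at 72.5, 26.7 and 94.4 CPM in CD11c+ libraries, against 2.36, 14.7 and 12.2 CPM in CD11c- libraries. The log2 fold change was 2.46 (SE 0.79, adjusted p = 0.475, edgeR). Without P5 CD11c+ replicate 2, the lowest of the 3 CD11c+ libraries for this gene, it was 2.86 and passed (adjusted p = 0.0398, edgeR).

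Clec4a1 stood at 213.1, 105.4 and 173.8 CPM in P5 CD11c+ libraries, against 33.0, 67.8 and 79.1 CPM in P5 CD11c- libraries. All 3 CD11c+ libraries lay above all 3 CD11c- libraries, and the log2 fold change of 1.20 (SE 0.47) did not pass (adjusted p = 0.667, edgeR). Clec7a stood at 167.0, 107.6 and 135.8 CPM, against 43.3, 104.0 and 92.4 CPM in CD11c- libraries. The groups did not overlap, though the lowest CD11c+ library lay close to the highest CD11c- library (log2 fold change 0.53, SE 0.43, adjusted p = 0.805, edgeR).

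The genes furthest apart at 9 months overlapped between the subsets at P5. Clec4d stood at 21.9, 23.7 and 22.4 CPM in P5 CD11c+ libraries and at 7.41, 44.3 and 35.2 CPM in P5 CD11c- libraries (log2 fold change -0.62, SE 0.65, adjusted p = 0.828, edgeR). Clec4e stood at 29.2, 19.9 and 27.9 CPM in CD11c+ libraries and at 4.92, 33.6 and 45.6 CPM in CD11c- libraries (-0.41, SE 0.76, adjusted p = 0.910, edgeR). In both genes P5 CD11c- replicate 1 was lowest of the 6 libraries and the other 2 CD11c- libraries were highest.

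Clec12a followed the same order, at 40.6, 24.4 and 45.9 CPM in P5 CD11c+ libraries and at 18.2, 58.5 and 49.95 CPM in P5 CD11c- libraries. The groups overlapped (log2 fold change -0.44, SE 0.52, adjusted p = 0.849, edgeR). Clec4a2 stood at 108.1, 61.5 and 122.0 CPM in CD11c+ libraries and at 68.2, 63.7 and 57.7 CPM in CD11c- libraries, and its log2 fold change was 0.43 (SE 0.29, adjusted p = 0.801, edgeR). CD11c+ replicate 2 alone lay within the CD11c- range, and without it Clec4a2 was higher by 0.70 and passed (adjusted p = 0.0297, edgeR). Without that library 2 of the 9 members were higher and 0 lower, against a background of 5.06% higher and 4.42% lower.

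Clec5a stood at 64.3, 30.2 and 58.3 CPM in P5 CD11c+ libraries and at 81.7, 51.0 and 52.0 CPM in CD11c- libraries (log2 fold change -0.43, SE 0.31, adjusted p = 0.801, edgeR). Clec4a3 stood at 139.9, 28.6 and 144.0 CPM in CD11c+ libraries and at 66.7, 102.8 and 103.3 CPM in CD11c- libraries (-0.03, SE 0.60, adjusted p = 0.994, edgeR). Both overlapped between groups, and in both P5 CD11c+ replicate 2 was the lowest library. Scaling to the homeostatic genes, where the median over all genes at P5 became 0.60, turned the direction of Clec5a (0.074), Clec4e (0.0060) and Clec4a3 (0.35).

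**Figure D3:**
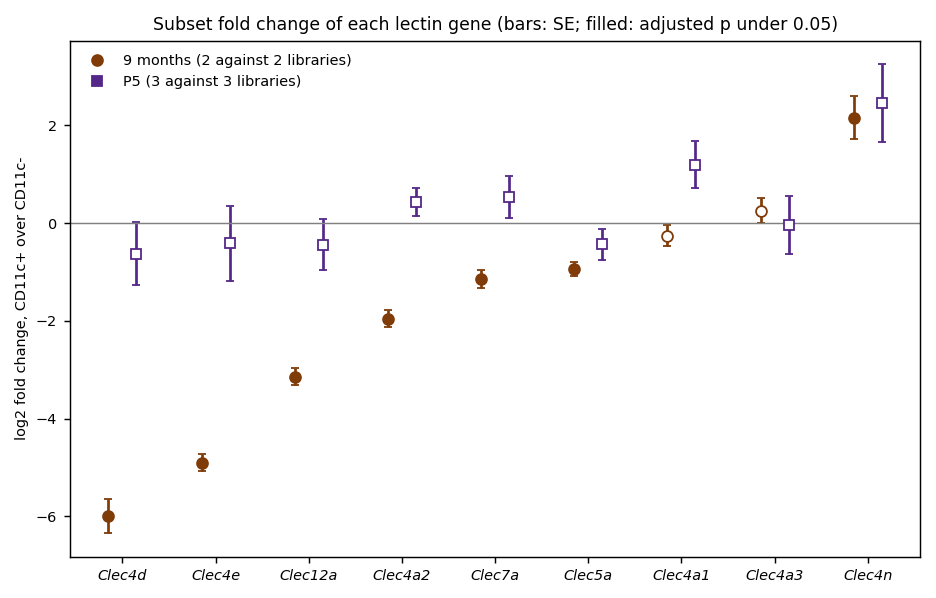
Log2 fold change of CD11c+ over CD11c- for each lectin gene at 9 months (circles) and at P5 (squares), with the SE of the edgeR fit as bars and filled symbols where the adjusted p is under 0.05. The 9-month values run from -6.00 for Clec4d to 2.16 for Clec4n, 7 of them filled, whereas no P5 value is filled.

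The subset difference was compared between the ages as an interaction, the 9-month log2 fold change minus the P5 log2 fold change. Age within a subset was not tested, because the 9-month libraries alone were made with a kit for small amounts of RNA, and the kit and age cannot be told apart. A kit effect common to both subsets cancels in the interaction. One that differs between the subsets would not cancel, and it was not tested. Clec4d was the 1 member called, at -5.21 (SE 0.97, adjusted p = 0.0300, edgeR), against a background of 1.86% of 19555 genes in either direction, 1.56% lower and 0.302% higher. Leaving out any of 8 of the 10 libraries ended the call, with adjusted p of 0.0517 to 0.339, and it was kept without P5 CD11c+ replicate 2 or P5 CD11c- replicate 1.

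The other members did not pass. Clec4e differed by -4.34 (SE 1.08, adjusted p = 0.0792), Clec4a2 by -2.24 (SE 0.56, adjusted p = 0.0790) and Clec12a by -2.56 (SE 0.78, adjusted p = 0.141) in edgeR. Clec7a, at -1.51 (SE 0.67, adjusted p = 0.302), and Clec4a1, at -1.30 (SE 0.69, adjusted p = 0.399), were below 0 with larger relative errors. Clec5a (-0.35, SE 0.57), Clec4n (-0.23, SE 1.14) and Clec4a3 (0.38, SE 0.93) lay within 1 SE of 0. At an unadjusted p under 0.05 there were 5 members, all lower, among 1833 genes lower and 1318 higher of 19555 in edgeR. The median of the 9 was -1.51, against -0.06 over all genes tested.

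The errors were smaller without the P5 library of few counts. Without P5 CD11c+ replicate 2 the common biological coefficient of variation of the fit of all libraries was 0.27, against 0.684 with it. Clec4d, Clec4e (-4.57, adjusted p = 0.0103), Clec12a (-2.84, 0.0116), Clec4a2 (-2.54, 0.000366) and Clec7a (-1.74, 0.0497) were then lower in edgeR, 5 of 9 against a background of 10.3% lower. Other settings of the same test called 2 members lower with DESeq2 size factors, 2 with no filter, 4 with DESeq2, 2 with limma-voom and 7 with scaling to the homeostatic genes. The backgrounds were 2.66%, 1.50%, 8.42%, 2.19% and 32.3% lower in the same order. Without P5 CD11c- replicate 1, Clec4e also passed, at -3.81 (adjusted p = 0.0307, edgeR). Of the 5 genes called without P5 CD11c+ replicate 2, 2 pointed down at 9 months and up at P5 in the fits of all libraries of each age, Clec7a (-1.14 at 9 months, against 0.53 at P5) and Clec4a2 (-1.95 at 9 months, against 0.43 at P5), and neither P5 value passed with all libraries.

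Levels were compared between genes as CPM per kilobase of exon, by group means. In 9-month CD11c+ libraries the order was Clec4a3 (131.3), Clec5a (45.3), Clec7a (36.6), Clec4a2 (28.1), Clec4n (17.2), Clec4a1 (12.7), Clec12a (8.16), Clec4e (2.75) and Clec4d (0.897), and no pair of neighbours overlapped between the 2 libraries. In 9-month CD11c- libraries it was Clec4a2 (83.5), Clec4a3 (83.3), Clec5a (67.1), Clec4e (63.1), Clec7a (61.4), Clec12a (55.2), Clec4d (44.3), Clec4a1 (11.7) and Clec4n (2.91). There neighbours among the first 5 overlapped and could not be ranked against each other. Genes further apart did not all overlap, as Clec4a2 lay above Clec5a, Clec4e and Clec7a, and Clec4a3 above Clec4e and Clec7a. Clec12a, Clec4d, Clec4a1 and Clec4n each lay below the gene before.

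In P5 CD11c+ libraries Clec4a1 led (105.3 CPM per kb), followed by Clec4a3 (78.5), Clec7a (51.9), Clec4n (45.4), Clec4a2 (33.2), Clec4d (14.2), Clec5a (13.3), Clec12a (6.69) and Clec4e (5.17). The only neighbours that did not overlap there were Clec4a2 and Clec4d. In P5 CD11c- libraries the order was Clec4a3 (68.5), Clec4a1 (38.5), Clec7a (30.3), Clec4a2 (21.6), Clec4d (18.1), Clec5a (16.03), Clec12a (7.63), Clec4n (6.88) and Clec4e (5.65), and only Clec5a and Clec12a did not overlap.

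The members together came to 265 and 300.4 CPM per kb in 9-month CD11c+ libraries, against 448 and 497 in 9-month CD11c- libraries. At P5 they came to 437, 201 and 423 in CD11c+ libraries, against 143, 251 and 246 in CD11c- libraries, where CD11c+ replicate 2 lay within the CD11c- range. The makeup of the sum differed. Clec4a3 alone made up 44.1% and 48.5% of it in 9-month CD11c+ libraries, against 15% and 20% in 9-month CD11c- libraries. Clec4e, Clec4d and Clec12a took 1.01%, 0.435% and 3.24% of it in 9-month CD11c+ replicate 1, against 14.2%, 9.07% and 12.2% in 9-month CD11c- replicate 1. At P5 Clec4a1 made up 26.4% to 33.7% in CD11c+ libraries and 14.8% to 20.7% in CD11c- libraries. The share of Clec7a was 12.7% to 13.2% in 9-month CD11c+, 12.5% to 13.5% in 9-month CD11c-, 12.2% to 20.3% in P5 CD11c+ and 11.5% to 15.7% in P5 CD11c- libraries.

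**Figure D4:**
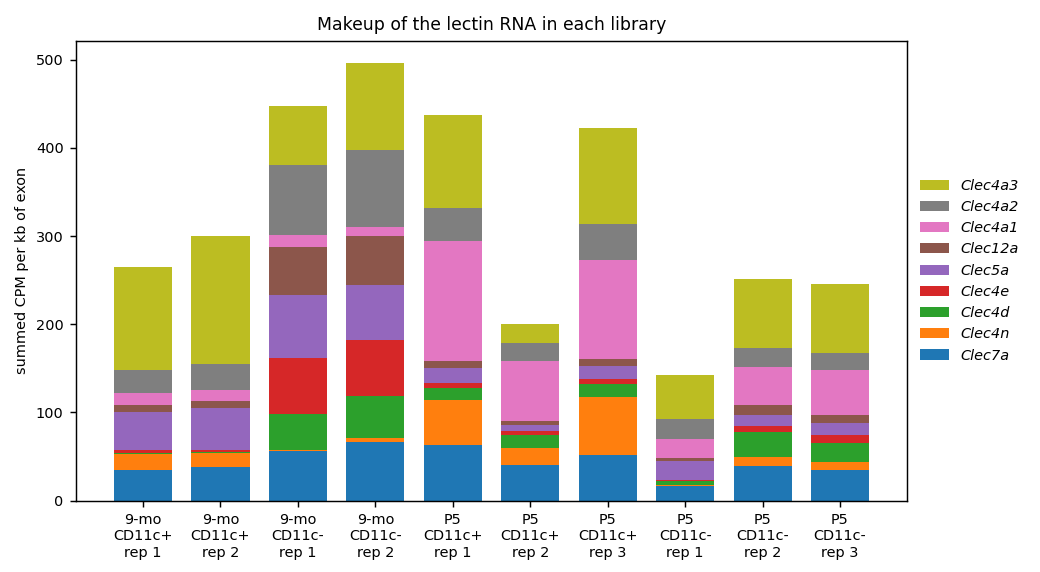
Summed CPM per kilobase of exon of the 9 lectin genes in each library, stacked by gene. The 2 9-month CD11c- bars reach 448 and 497 with broad shares of Clec4e, Clec4d and Clec12a, Clec4a3 makes up 44.1% and 48.5% of the 9-month CD11c+ bars, and Clec4a1 is broadest in the P5 CD11c+ bars.

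The closest patterns were not those of neighbouring genes. Likeness was measured as the root mean square difference of log2 CPM (0.5 CPM added), each gene centred on its mean over the 10 libraries, so that 0 is an identical pattern. Clec7a and Clec4a2, on different parts of the chromosome, were the closest pair at 0.55, followed by Clec4e and Clec12a at 0.69, and Clec4d and Clec4e, next to each other, differed by 1.31. The farthest pair was Clec4e and Clec4n, at 2.76, which lie within 1 gene group with Clec4d between them.

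Among 14453 other protein-coding genes, Fpr2, a formyl peptide receptor of phagocytes, was nearest to Clec4d (0.27), with mean CPM of 2.93 in 9-month CD11c+, 155.9 in 9-month CD11c-, 32.9 in P5 CD11c+ and 42.7 in P5 CD11c- libraries. Gsr, glutathione reductase, was next (0.37). Clec4e was nearest to Plp2 (0.48) and Pilrb2 (0.48). Clec12a lay closest to Cnn2, an actin-binding calponin (0.19), and to Capg, an actin-capping protein (0.25), and Cnn2 averaged 81.1 CPM in 9-month CD11c+ and 725.6 CPM in 9-month CD11c- libraries.

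Clec4n, the member with the opposite direction, was nearest to Ifi207, an interferon-inducible gene (0.56), and to Cd36, a scavenger receptor (0.60). Cd36 averaged 63.9 CPM in 9-month CD11c+, 11.5 in 9-month CD11c-, 383.3 in P5 CD11c+ and 38.0 in P5 CD11c- libraries. Clec7a was nearest to Ebi3, a subunit of the cytokines IL-27 and IL-35 (0.29), and Cast (0.29), and Clec5a to Rgs19 (0.15) and Dpy30 (0.22). Clec4a1 lay closest to Hip1 (0.36) and Pianp (0.37). Pianp was hardly detected, with mean CPM of 2.60 in P5 CD11c+, 0.507 in P5 CD11c-, 0.041 in 9-month CD11c+ and 0 in 9-month CD11c- libraries. Its likeness therefore rests largely on the 0.5 CPM added. Clec4a2 lay closest to Ostf1 (0.19) and Il1rap (0.24), and Clec4a3 to Gm2a, a lysosomal activator protein (0.26), and Zfp524 (0.28). These likenesses rest on 10 libraries that share their group differences and are a description only.

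The signalling genes downstream of the receptors moved in both directions at 9 months. Of 44 genes, all tested, 12 were higher and 13 lower in CD11c+ libraries, against 14.8% higher and 18.2% lower among all genes tested, with a median log2 fold change of 0.10 against 0.02 over all genes tested. The adaptors were lower, Tyrobp at -1.23 (SE 0.26, adjusted p = 0.0119) and Fcer1g at -1.003 (SE 0.22, adjusted p = 0.0132) in edgeR, and so was Syk, the kinase they recruit (-0.76, SE 0.14, adjusted p = 0.00748). Tyrobp stood at 1381 and 1797 CPM in CD11c+ libraries, against 2283 and 3380 CPM in CD11c-. Card9, the scaffold that links Syk to NF-kB, did not pass (0.29, SE 0.16, adjusted p = 0.215). Fitting all 10 libraries together called 2 of the 44 in edgeR, against 1.43% higher and 4.49% lower among all genes tested in it, and Tyrobp, Fcer1g and Syk were not among them (adjusted p = 0.396 to 0.604).

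The largest decreases among effectors and kinases were of the Src-family kinase Fgr (-2.95, SE 0.21) and of the cytokine Il1b (-2.82, SE 0.16). Il1b stood at 93.2 and 79.5 CPM in 9-month CD11c+ libraries, against 483.2 and 454.0 CPM in CD11c-. The exchange factor Vav3 (-2.78), the cytokine Il6 (-1.77) and the chemokine Cxcl2 (-1.64) were lower as well. Rubcn, a regulator of the Card9 complex (1.48), the NF-kB subunit Nfkb1 (1.09) and the transcription factor Irf5 (1.05) were higher, and scaling to the homeostatic genes turned Nfkb1 (-0.13) and Irf5 (-0.18) and left Rubcn at 0.25, short of the threshold. Adjusted p-values of these 8 genes were 5.88e-05 to 0.00295 in edgeR.

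At P5 0 of the 44 passed in edgeR or limma-voom and 1 in DESeq2, with a median of -0.26 against 0.06 over all genes tested. Of all 15410 genes tested 0.299% passed in edgeR, 0.487% were higher in limma-voom and 554 genes passed in DESeq2. Only Rubcn had an unadjusted p under 0.05 at P5 (1.13, SE 0.23, adjusted p = 0.162, edgeR), among 668 genes higher and 409 lower. Without P5 CD11c+ replicate 2 Rubcn was 1.29 and passed (adjusted p = 0.00571, edgeR). Next by p with all libraries were Il10 (2.93, SE 1.29), Irf1 (-0.59, SE 0.29) and Vav3 (1.13, SE 0.55). Their adjusted p were 0.742 to 0.774 (edgeR). Il10 stood at 14.9 CPM in P5 CD11c+ replicate 2, against 0.988 and 2.73 CPM in the other P5 CD11c+ libraries. Tyrobp (-0.19, SE 0.51), Fcer1g (-0.25, SE 0.39), Syk (-0.38, SE 0.47) and Card9 (-0.08, SE 0.33) lay within 1 SE of 0, and all 4 turned positive when scaled to the homeostatic genes. Of the difference between the ages 0 of the 44 passed in edgeR, 1 in limma-voom and 5 in DESeq2. Of all 19555 genes tested 1.86% passed in edgeR, 2.19% were lower in limma-voom and 2385 genes passed in DESeq2. At an unadjusted p under 0.05 in edgeR there were 7 of the 44, among 1318 genes higher and 1833 lower. The median of the 44 was 0.49, against -0.06 over all genes tested. Vav3 came closest (-3.77, SE 0.84, adjusted p = 0.0553, edgeR), ahead of Inpp5d, Nfkb1 and Irf5, at 1.996, 1.49 and 1.93 with adjusted p of 0.117 to 0.167. Without P5 CD11c+ replicate 2 all 4 of these genes passed (adjusted p = 0.00238 to 0.00587, edgeR).

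**Figure D5:**
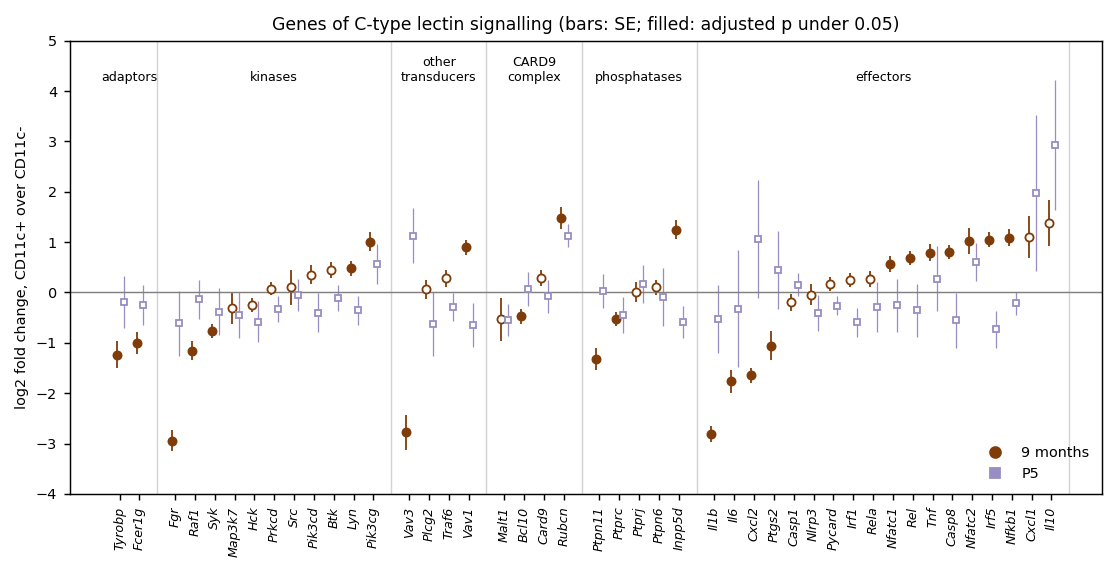
Log2 fold change of CD11c+ over CD11c- for 44 genes of C-type lectin signalling, ordered by role, at 9 months (circles) and at P5 (squares), with the SE as bars and filled symbols where the edgeR adjusted p is under 0.05. At 9 months 25 symbols are filled, 12 above 0 and 13 below, with Fgr (-2.95), Il1b (-2.82) and Vav3 (-2.78) lowest, and no P5 symbol is filled.

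Of the 24 other annotated Clec genes, 11 passed the filter on low counts and were tested at 9 months, and 10 at P5. Clec10a, a galactose-binding lectin of macrophages and dendritic cells, was higher in CD11c+ at both ages. At 9 months it stood at 42.5 and 37.3 CPM in CD11c+ libraries, against 6.50 and 7.32 CPM in CD11c- libraries (log2 fold change 2.15, SE 0.24, adjusted p = 0.000854, edgeR). At P5 it stood at 140.1, 140.1 and 163.3 CPM in CD11c+ libraries, against 2.29, 7.96 and 5.89 CPM in CD11c- libraries (4.54, SE 0.55, adjusted p = 0.0412, edgeR), and it was the only one of the 10 that passed. Of all genes tested at P5 0.299% passed. The P5 call of Clec10a was kept without P5 CD11c+ replicate 2 and lost without any other of the 6 P5 libraries (adjusted p = 0.140 to 0.433, edgeR). Clec10a is also in the list of dendritic cell markers, and the sum for border-associated macrophages was higher in CD11c+ libraries at both ages.

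Clec4b2, a close relative of the members within the same gene family, was the other call at 9 months. It had 4 counts over both CD11c+ libraries, against 164 over both CD11c- libraries (adjusted p = 0.00586, edgeR). Of all genes tested at 9 months 33.0% passed in either direction. Clec16a (-0.57, adjusted p = 0.0576), Clec11a (-1.81, 0.147), Clec1a (0.73, 0.274), Clec1b (-0.64, 0.426), Clec9a (1.001, 0.435) and Clec2d (-0.72, 0.507) did not pass at 9 months. At P5 Clec2d (1.08, SE 0.31, adjusted p = 0.366), Clec9a (2.73, SE 0.92, 0.517) and Clec4b1 (2.76, SE 1.14, 0.709) did not pass in edgeR. Without P5 CD11c+ replicate 2 Clec9a was 3.27 and passed (adjusted p = 0.00517, edgeR). Clec4b1 stood at 16.8 CPM in that library, against 1.38 and 2.73 CPM in the other P5 CD11c+ libraries. Between the ages 0 of 13 tested passed in edgeR or limma-voom and 1 in DESeq2, with 2 at an unadjusted p under 0.05 in edgeR. Of all 19555 genes 2385 passed in DESeq2, and 1318 were higher and 1833 lower at an unadjusted p under 0.05 in edgeR. The differences between the ages were -2.22 for Clec10a (SE 0.69, adjusted p = 0.152, edgeR), -1.58 for Clec2d (0.237), -2.59 for Clec4b1 (0.353) and -0.72 for Clec16a (0.469). Without P5 CD11c+ replicate 2 Clec10a was -2.36 and passed (adjusted p = 0.0223, edgeR).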

How the data were processed

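RNA of sorted CD11c+ and CD11c- microglia was sequenced in 10 libraries. Each deposited table gives unnormalised whole-number counts of 49315 genes. Tools named in the submitters' processing notes are Trimmomatic 0.36, STAR 2.5.2b and Subread 1.5.2. Build, strandedness and treatment of reads with several matches are not given in the sources used here. Per the labels' protocols, the 9-month libraries were made with a SMART-Seq kit for small amounts of RNA and the others by standard Illumina methods. Whether replicates are separate animals is not stated in the labels. The p-values therefore speak only of the spread between these libraries, which may be technical. Replicates differed by more than sampling noise (chi-square per degree of freedom 25.3 to 209.9), and none was taken as a duplicate.

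Symbols came from GENCODE M21 for 48970 identifiers. CPM are counts divided by the library total and scaled to 1000000, and CPM per kilobase were divided by the exon length in the deposited tables. The quasi-likelihood test of edgeR 4.0.16 (R 4.3.3; filterByExpr, TMM scaling) was run separately at 9 months and at P5. An interaction fitted over all 10 libraries gave the difference between ages. P-values were adjusted over all genes tested (Benjamini-Hochberg, threshold 0.05), and every adjusted p is from this edgeR test unless another tool is named. The SE is the size of the fold change over the root of F. Alternatives were DESeq2 size factors, scaling to the 25 homeostatic genes, no filter, DESeq2 1.42.0, limma-voom (limma 3.58.1), a replicate block, a fit of all 10 libraries, and leaving out each library. The tests were run on simulated counts first.

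The members and the gene lists were chosen with earlier results of these data known. The 9 members were always named. Of the signalling list and of the other Clec genes, those with the smallest p were named, 8 at 9 months and 4 at P5 and between ages, together with Fcer1g, Tyrobp, Syk and Card9. Itgax was named as the check of the sort, and the 2 protein-coding genes most like each member in pattern. Of the marker lists (homeostatic microglia, axon tract and disease-associated microglia, border-associated macrophage, dendritic cell, monocyte, neutrophil and eosinophil), sums, counts and defining genes were given. Depth limits precision for genes of few counts. Columns of per-sample values left unused numbered 0.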

Additional observations from a re-analysis of the deposited data

Results flagged for a closer look

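The subset difference of Clec4d was larger at 9 months than at P5, by -5.21 on the log2 scale (9-month log2 fold change minus P5 log2 fold change, SE 0.97, adjusted p = 0.0300, edgeR's quasi-likelihood test of the interaction). The log2 fold change of CD11c+ over CD11c- was -6.00 at 9 months, where both CD11c+ libraries lay below both CD11c- libraries, and -0.62 at P5, where the groups overlapped. The 9-month CD11c+ values rest on 47 and 24 counts. The call was lost when any of 8 of the 10 libraries was left out, and with the replicate block (adjusted p = 0.0979, edgeR). A kit effect that differs between the subsets was not tested. The neutrophil markers summed to 0.219% to 0.313% of counts in 9-month CD11c+ libraries, against 13.9% to 18.9% in 9-month CD11c- libraries, and their part in this difference was not tested.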

How the results depend on the processing

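At 9 months the homeostatic genes were themselves mostly higher in CD11c+ libraries, and scaling to them called 55.3% of all genes lower. Keeping a lower call under that scaling is therefore no test. In the fit of all 10 libraries 4 of the 6 members that were lower kept that call. All 6 kept it under DESeq2 size factors, no filter, DESeq2, limma-voom and the replicate block, which leaves little to estimate the spread from in 4 libraries. They also passed with any 1 of the 4 libraries removed, but the spread then comes from the intact pair alone and the lone library is assumed to vary like it. Members called higher numbered 0 under the homeostatic scaling and 0 in the fit of all 10, and 1 to 2 when a library was left out. All genes called numbered 8817 under the homeostatic scaling and 1158 in the fit of all 10. The signalling list had 2 calls in the fit of all 10, and the other Clec genes 7 under the homeostatic scaling and 1 in the fit of all 10. The homeostatic scaling turned Card9 (-0.94), Nfkb1 (-0.13), Irf5 (-0.18), Clec1a (-0.47), Clec4a3 (-0.94) and Clec9a (-0.16). Leaving out a library gave Clec4a3 between -0.065 and 0.74. Itgax no longer passed under the homeostatic scaling (0.83, adjusted p = 0.0757, edgeR) or in the fit of all 10 (2.22, adjusted p = 0.118, edgeR).

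At P5 the genes called numbered 110 under the homeostatic scaling, 554 with DESeq2, 75 with limma-voom, 138 in the fit of all 10 and 0 to 1501 when a library was left out. Members called higher numbered 1 with DESeq2 and 0 to 2 when a library was left out. The signalling list had 1 call under the homeostatic scaling, 1 with DESeq2 and 0 to 3 when a library was left out, and the other Clec genes 0 to 2. The homeostatic scaling turned Syk (0.051), Card9 (0.57), Clec5a (0.074), Clec4e (0.0060), Tyrobp (0.24), Clec4a3 (0.35) and Fcer1g (0.22). Clec4e was 0.36 with limma-voom, and Clec4a3 0.056 with no filter. Leaving out a library gave Card9 -0.32 to 0.073, Clec4a3 -0.35 to 0.43, Clec4e -0.94 to 0.21, Fcer1g -0.50 to 0.092, Syk -0.65 to 0.026 and Tyrobp -0.56 to 0.24.

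For the difference between ages the genes called numbered 623 with DESeq2 size factors, 6343 under the homeostatic scaling, with a median over all genes of -2.03, 693 with no filter, 2385 with DESeq2 and 0 to 3496 when a library was left out. Members called lower numbered 2, 7, 2 and 4 in the same order, 2 with limma-voom and 0 to 5 when a library was left out. The signalling list had 1, 20, 1 and 5 calls in the same order, 1 with limma-voom and 0 to 10 when a library was left out. The other Clec genes had 4 calls under the homeostatic scaling, 1 with DESeq2 and 0 to 1 when a library was left out. Of all genes tested, 2.66% were called lower with DESeq2 size factors, 32.3% under the homeostatic scaling and 1.50% with no filter. The share was 8.42% with DESeq2 and 2.19% with limma-voom. The calls of each list are to be read against these shares. The homeostatic scaling turned Card9 (-1.51), Nfkb1 (-0.45), Itgax (-1.22) and Clec4a3 (-1.29), and limma-voom turned Syk (0.065). Leaving out a library gave Clec4a3 -0.087 to 0.98, Clec4n -0.78 to 0.80, Clec5a -0.67 to 0.044 and Syk -0.67 to 0.047.

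At P5 the deviations of same-numbered libraries correlated at 0.318, 0.042 and -0.222, and those of different-numbered libraries at -0.365 to 0.313. With so few libraries this does not show pairing and cannot exclude it. At 9 months both same-numbered pairs correlated at 0.150 and both different-numbered pairs at -0.150, which with 2 pairs does not show pairing. With the replicate block 0 genes and 0 other Clec genes were called at P5, where Clec4e turned to 0.049, and 0 genes and 0 members in the difference between ages, where Clec4d had an adjusted p of 0.0979 (edgeR). The causes of these shifts were not tested. Depth limited Clec4d in 9-month CD11c+ libraries (24 and 47 counts) and all genes of P5 CD11c+ replicate 2.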
